A study of Mus musculus with 11 samples.

Results

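The genes described here are 10 mononuclear phagocyte genes, that is *Lyz2*, *Cd68*, *Csf1r*, *Adgre1*, *Aif1*, *Apoe*, *C1qa*, *C1qb*, *C1qc* and *Itgam*, taken by symbol from the 35814 gene symbols measured. They were followed through 11 RNA sequencing libraries of CD4+ T cells sorted from mouse kidneys on day 2 after ischemia-reperfusion injury (IRI). All 10 symbols were present in the table, and 8 of them passed the expression filter in each comparison of genotypes. *Adgre1* and *Itgam* did not pass it. C1q transcripts (*C1qa*, *C1qb* and *C1qc*) and *Lyz2* were found in all 11 libraries, with their lowest group means in the libraries labelled CD4IKK1. Against libraries labelled CD4NIK, these 4 genes were 3.36- to 32.4-fold lower in libraries labelled CD4IKK1. They passed the test as lower under TMM scaling, as did 18.5% of all genes. Pan-leukocyte scaling moved the median of all genes to 6.07 on the log2 scale. There the C1q chains passed the test as higher, as did 87.5% of all genes, and *Lyz2* did not pass it. All 4 lay above 0 but at −5.86 to −2.37 relative to that median.

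Monocytes enter an injured kidney from the blood and can become macrophages, which then share the tissue with resident macrophages and dendritic cells. These cells clear dead cells and debris and are a major source of complement C1q, the recognition unit of the classical pathway, which is built from A, B and C chains. They also secrete lysozyme M (*Lyz2*) and apolipoprotein E (*Apoe*, a lipid carrier that many other cells make, astrocytes among them), depend on the receptor for colony stimulating factor 1 (*Csf1r*), and carry F4/80 (*Adgre1*), CD68 (*Cd68*, a glycoprotein of late endosomes and lysosomes), IBA1 (*Aif1*, an actin-binding protein) and CD11b (*Itgam*, an integrin subunit). CD4+ T cells are not known as a main source of any of these products.

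There were 3 libraries of CD4cre mice, whose genotype the labels call WT, 5 libraries labelled CD4IKK1 and 3 libraries labelled CD4NIK, given as biological replicates. All groups were male C57BL/6 mice aged 8 to 12 weeks that had bilateral clamping of the renal pedicles, and all carried a Cre recombinase under the CD4 promoter, which deletes in T cells and leaves myeloid cells of the host with intact floxed alleles unless they use that promoter. In CD4IKK1 and CD4NIK mice the Cre acts on floxed alleles of *Chuk* (IKK1) or *Map3k14* (NIK), kinases of the NFκB pathway, and the comparisons ask how renal CD4+ T cells without each kinase differ from control cells. There was no library from uninjured or sham-operated mice among those analysed. The cells were enriched with magnetic beads and purified by FACS, and their RNA was amplified before sequencing.

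The 11 libraries held between 15751632 and 25737046 estimated counts each. In CPM, counts relative to the library total after TMM scaling, a floor of 3 counts stood for 0.115 to 0.212. *Chuk* had 432, 683 and 325 counts in CD4cre libraries and 258 to 588 counts in libraries labelled CD4IKK1, and *Map3k14* had 506, 403 and 294 counts in CD4cre libraries and 232, 626 and 337 counts in libraries labelled CD4NIK. In libraries labelled CD4IKK1 *Map3k14* had 29, 94, 109, 186 and 170 counts, at 1.88 to 9.25 CPM below every library of the other groups (12.8 to 30.8 CPM), so that the gene targeted in CD4NIK mice was lowest in the libraries named after the other kinase. Neither targeted gene was lower in the mice named after it beyond the spread of the libraries (FDR 0.921 and 0.575, edgeR), and counts summed over a gene do not resolve floxed exons. The genotype names below are therefore the labels of the libraries. Defining T cell transcripts also differed between libraries. T cell receptor constant regions (*Trac*, *Trbc1* and *Trbc2*) had 12558 to 35820 counts in CD4cre libraries and 60124 to 111648 counts in libraries labelled CD4NIK, but 41 counts in CD4IKK1 replicate 1, 868 in replicate 2 and 5277 to 11413 in the other 3. Neuron markers, of which a sorted renal T cell should hold little, summed to 2723 to 3301 CPM in CD4cre libraries, 3427 to 4018 CPM in libraries labelled CD4IKK1 and 899 to 1841 CPM in libraries labelled CD4NIK. In bulk RNA, fewer cells of a type and less RNA per cell cannot be told apart.

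The stretches upstream of 4 members are shown because the C1q chains ran together across libraries while *Lyz2* spanned the widest range over the 11 libraries and *Cd68* one of the narrowest. The C1q genes lie side by side on the minus strand of chromosome 4 (*C1qb* from 136606009 to 136613511, *C1qc* from 136616466 to 136620376 and *C1qa* from 136623223 to 136626161 on GRCm39), within 20.2 kb, and each has 3 exons. Sequences are the 250 bases before the RefSeq start on GRCm38.p6, written 5′ to 3′ along the gene, with capitals for the PU box GAGGAA, a motif bound by the myeloid factor PU.1, on either strand (TTCCTC on the other). They lie at chr4:136886201-136886450 for *C1qb*, chr4:136892915-136893164 for *C1qc*, chr10:117282273-117282522 for *Lyz2* and chr11:69666171-69666420 for *Cd68*, all on the minus strand.
C1qb: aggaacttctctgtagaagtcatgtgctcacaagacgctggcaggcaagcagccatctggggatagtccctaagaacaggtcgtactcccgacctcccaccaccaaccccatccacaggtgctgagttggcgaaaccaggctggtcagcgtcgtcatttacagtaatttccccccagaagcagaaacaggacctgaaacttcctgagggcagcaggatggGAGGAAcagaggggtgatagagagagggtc
C1qc: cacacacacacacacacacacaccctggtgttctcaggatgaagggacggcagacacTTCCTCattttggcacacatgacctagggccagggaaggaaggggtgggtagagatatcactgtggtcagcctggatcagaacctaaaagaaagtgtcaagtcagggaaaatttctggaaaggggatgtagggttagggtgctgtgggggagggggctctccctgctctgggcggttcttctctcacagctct
Lyz2: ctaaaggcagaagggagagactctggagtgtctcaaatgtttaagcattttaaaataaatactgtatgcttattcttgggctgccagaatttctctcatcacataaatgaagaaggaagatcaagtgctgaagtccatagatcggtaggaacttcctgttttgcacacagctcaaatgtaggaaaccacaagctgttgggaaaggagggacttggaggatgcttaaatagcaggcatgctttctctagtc
Cd68: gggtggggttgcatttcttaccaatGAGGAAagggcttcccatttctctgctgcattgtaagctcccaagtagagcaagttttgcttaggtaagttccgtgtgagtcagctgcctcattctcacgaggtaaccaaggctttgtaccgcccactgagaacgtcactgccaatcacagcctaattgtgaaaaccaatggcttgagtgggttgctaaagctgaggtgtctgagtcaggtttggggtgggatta
The PU box began 30 bases before the start of *C1qb*, 193 before that of *C1qc* (other strand) and 225 before that of *Cd68*, and these letters were not in the window of *Lyz2*. Among members not shown, the windows of *Aif1* and *Itgam* hold the PU box too, as do those of starts 1 and 3 of *Apoe* but not that of start 2. Of the 32851 RefSeq windows available, 23.3% hold the motif, and 3.8% hold TGCTGAC, a core of the Maf motif that none of the 4 windows has. A match of letters is a description and not a binding site.

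Per kilobase of the annotated canonical transcript, the mean level over the 11 libraries was highest for *Apoe* (343 CPM per kb), followed by *C1qa* (77.0), *C1qb* (62.9), *C1qc* (53.4), *Lyz2* (42.0), *Cd68* (13.7), *Aif1* (3.51) and *Csf1r* (3.32 CPM per kb). *Adgre1* and *Itgam* stood at 0.127 and 0.0849 CPM per kb. The ranges over the libraries of neighbours in this order overlapped, except for *Csf1r* and *Adgre1*. Within each of the 11 libraries, *Apoe* stood above *C1qa*, *Cd68* above *Aif1* and *Csf1r* above *Adgre1*. The other neighbours changed places between libraries, so that the order among them is not set. The order also differed between groups. *Lyz2* stood at 86.2 CPM per kb in CD4NIK, above *C1qa* at 79.4, but at 2.65 in CD4IKK1, below *Cd68* at 16.6 and *Aif1* at 4.33. All CPM values below are per gene and not per kilobase. The members also differed in how far they varied. *Lyz2* spanned 372-fold from its lowest to its highest library and the C1q chains 20.0- to 28.6-fold, whereas *Csf1r* spanned 7.22-fold, *Cd68* 4.29-fold and *Apoe* 4.17-fold.

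**Figure D1:**
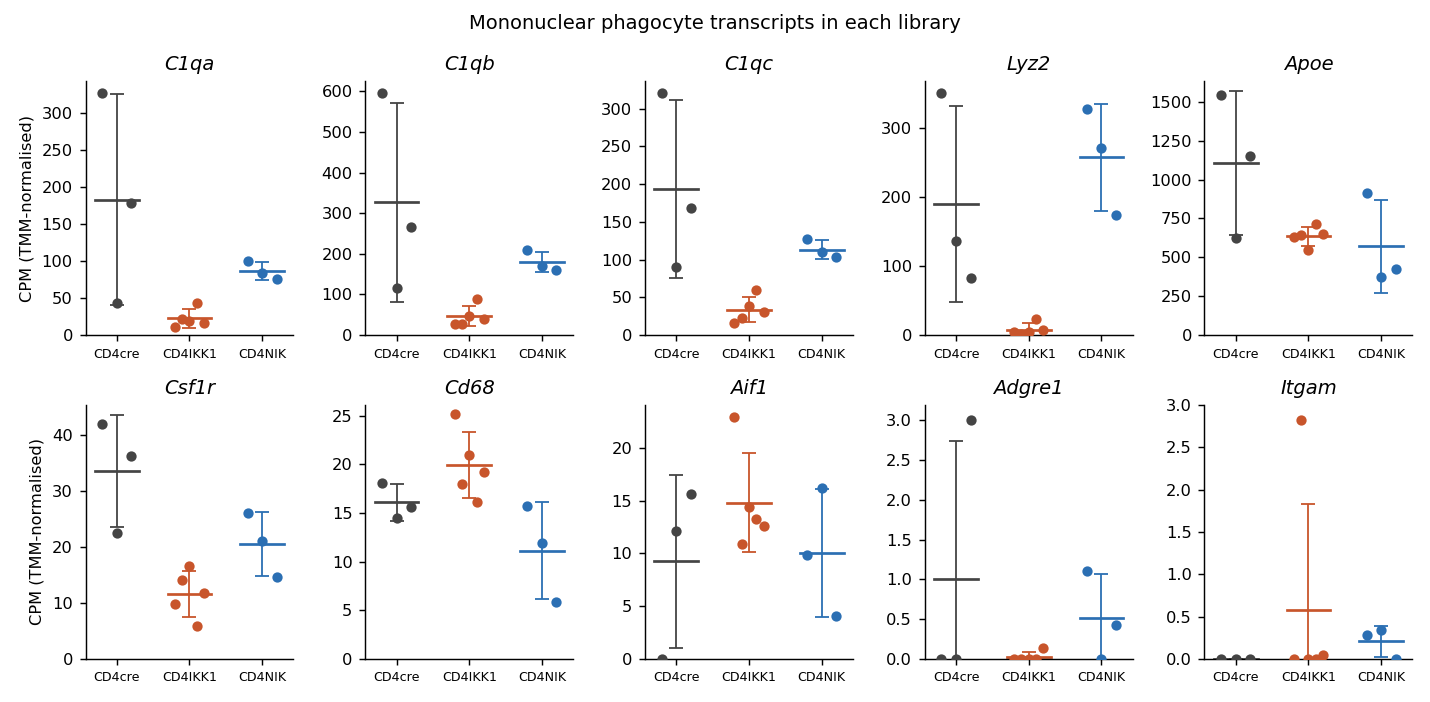
CPM of each of the 10 members (linear axes from 0) in every library, by genotype label; points are libraries, horizontal lines group means and error bars 1 SD, cut off at 0. Under this scaling (TMM) the C1q chains, Lyz2 and Csf1r have their lowest group mean in CD4IKK1, Cd68 and Aif1 their highest, and Adgre1 and Itgam are at 0 in 7 of 11 libraries each.

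*C1qa*, *C1qb* and *C1qc* encode the A, B and C chains, which are secreted as 1 complex. *C1qb* stood at 597, 116 and 267 CPM in CD4cre libraries (replicates 1 to 3), at 27.9, 28.1, 47.8, 88.6 and 39.2 CPM in libraries labelled CD4IKK1 (replicates 1 to 5) and at 208, 171 and 161 CPM in libraries labelled CD4NIK. All 5 CD4IKK1 values were below all values of both other groups, which overlapped each other. *C1qc* stood at 321, 90.4 and 169 CPM in CD4cre libraries, at 16.1 to 59.5 CPM (median 30.9) in libraries labelled CD4IKK1 and at 127, 110 and 103 CPM in libraries labelled CD4NIK. *C1qa* stood at 327, 43.3 and 178 CPM in CD4cre libraries, at 11.4 to 44.0 CPM (median 19.2) in libraries labelled CD4IKK1 and at 99.6, 83.7 and 75.6 CPM in libraries labelled CD4NIK. For *C1qa* the highest CD4IKK1 library, replicate 4, lay just above the lowest CD4cre library, replicate 2.

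Summed over the chains, C1q was 703 ± 503 CPM (SD, n = 3) in CD4cre mice, 103 ± 53.3 CPM (SD, n = 5) in mice labelled CD4IKK1 and 380 ± 49.7 CPM (SD, n = 3) in mice labelled CD4NIK. The CD4cre libraries were thus the most uneven, from 250 to 1245 CPM, and CD4NIK libraries the most even, from 339 to 435 CPM. The chains kept similar proportions while their sum moved over that range. *C1qb* made up 38.6% to 50.3% of C1q counts, *C1qc* 25.8% to 36.6% and *C1qa* 17.3% to 29.7% in the 11 libraries. The shares of *C1qa* differed beyond counting error even within CD4cre mice, at 17.3% (95% exact binomial interval 16.3 to 18.4) in replicate 2 and 29.1% (28.3 to 29.9) in replicate 3. These intervals and the floor take in no more than counting error, because reads amplified by PCR and not tagged by molecule can be copies of each other. Counted per 1000 T cell receptor constant region counts, C1q stood at 226 to 975 in CD4cre libraries and 53.2 to 131 in libraries labelled CD4NIK, so that these groups did not overlap on this scale. In libraries labelled CD4IKK1 the ratio ran from 164 to 1599 in replicates 2 to 5 and was 20927 in replicate 1, which holds only 41 of those counts.

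**Figure D2:**
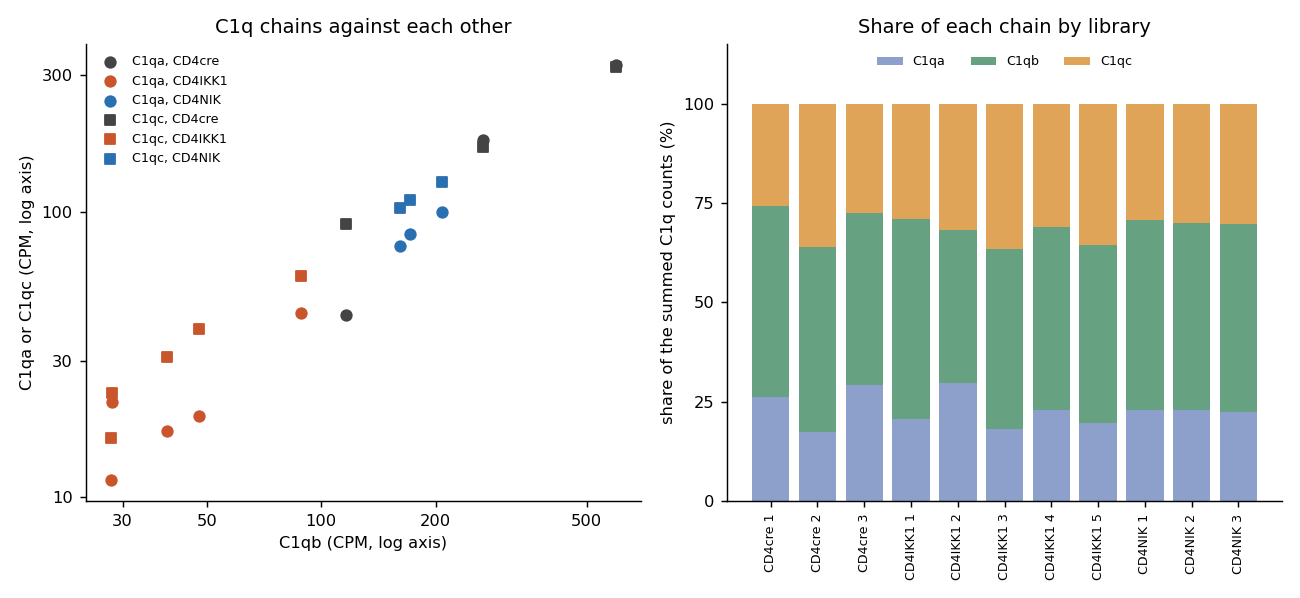
Left, C1qa (circles) and C1qc (squares) against C1qb in CPM on log axes, 1 pair of points per library, coloured by genotype label; right, the share of each chain in the summed C1q counts (%) of each library. The chains run together over the 11 libraries, and C1qb holds 38.6% to 50.3% of the counts.

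*Lyz2* encodes lysozyme M, an enzyme that breaks bacterial cell walls and that is made by macrophages, monocytes and neutrophils. On GRCm39 the gene spans positions 117111557 to 117118346 of chromosome 10. Its level was 351, 137 and 82.9 CPM in CD4cre libraries, at 3.88, 0.943, 4.13, 23.5 and 7.17 CPM in libraries labelled CD4IKK1 and at 328, 271 and 174 CPM in libraries labelled CD4NIK. The CD4IKK1 libraries all lay below the others, and even the lowest, replicate 2 with 18 counts, was above the floor. *Lyz1*, a neighbouring paralog that is 95.3% identical to *Lyz2* over the best alignment of their longest transcripts, is listed at 0 in all 11 libraries. All *Lyz2* values were whole numbers, but how reads that fit both genes were divided cannot be seen in the table. Relative to C1q, *Lyz2* also differed. It had at most 122 counts per 1000 C1q counts in libraries labelled CD4IKK1, 135 to 549 in CD4cre libraries and 514 to 755 in libraries labelled CD4NIK, so that CD4IKK1 values did not overlap either group. Neutrophil markers, 11 in all, summed to 4.21 to 20.0 CPM in CD4cre libraries, 3.72 to 11.0 CPM in libraries labelled CD4IKK1 and 15.8 to 109 CPM in libraries labelled CD4NIK, and their part in the *Lyz2* level was not tested.

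*Csf1r*, the receptor for the growth factors Csf1 and Il34, had 42.0, 22.5 and 36.3 CPM in CD4cre libraries, 9.90, 14.0, 16.7, 5.82 and 11.8 CPM in libraries labelled CD4IKK1 and 26.1, 21.0 and 14.6 CPM in libraries labelled CD4NIK. CD4IKK1 libraries were all below the CD4cre libraries, and overlapped those labelled CD4NIK by 1 library, CD4NIK replicate 3. Within the CD4IKK1 group *Csf1r* and C1q did not run in the same order, since replicate 4 had the highest C1q sum and the lowest *Csf1r* value.

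*Apoe* had the highest level per kilobase of all members in every library. It had 1545, 626 and 1153 CPM in CD4cre libraries, 631, 644, 545, 717 and 649 CPM in libraries labelled CD4IKK1 and 916, 371 and 426 CPM in libraries labelled CD4NIK. All groups overlapped. *Apoe* varied much less than C1q, and for each C1q count there were 3.73 to 11.4 *Apoe* counts in libraries labelled CD4IKK1, 1.24 to 2.51 in CD4cre libraries and 1.02 to 2.11 in libraries labelled CD4NIK. Astrocyte markers, named here because astrocytes make *Apoe*, summed to 270 to 343 CPM, 224 to 281 CPM and 92.3 to 171 CPM in these groups, and their part in the *Apoe* level was not tested.

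*Cd68* and *Aif1* did not follow C1q. *Cd68* had 18.1, 14.5 and 15.7 CPM in CD4cre libraries, 25.2, 18.0, 20.9, 16.2 and 19.3 CPM in libraries labelled CD4IKK1 and 15.7, 11.9 and 5.86 CPM in libraries labelled CD4NIK. Here CD4IKK1 libraries lay above all those labelled CD4NIK and overlapped CD4cre libraries. *Aif1* had 12.1 and 15.7 CPM in CD4cre replicates 2 and 3, 10.9 to 23.0 CPM (median 13.3) in libraries labelled CD4IKK1 and 9.88, 16.2 and 4.03 CPM in libraries labelled CD4NIK. It is listed at 0 in CD4cre replicate 1, the library with the highest C1q, *Lyz2* and *Apoe* levels, and such a 0 can be a failed estimate of the counting program.

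The surface markers *Adgre1* and *Itgam* were above the floor of 3 counts in 3 libraries each. *Adgre1* had 60 counts in CD4cre replicate 3, 3 counts in CD4IKK1 replicate 5 and 20 and 6 counts in CD4NIK replicates 1 and 3, and was listed at 0 in the other 7 libraries. *Itgam* had 54 counts in CD4IKK1 replicate 2, 1 count in replicate 5 and 5 and 7 counts in CD4NIK replicates 1 and 2, and was listed at 0 in the other 7 libraries, all CD4cre libraries among them. F4/80 and CD11b transcripts were thus too few to be compared between groups at this depth.

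Between libraries labelled CD4IKK1 and CD4cre libraries, 6 of the 8 members tested had lower levels in CD4IKK1 and 2 had higher ones, but none was called, for which a gene had to differ by more than 2-fold with an FDR under 0.05. Over all 15653 genes tested, 0% were called in either direction, with a smallest FDR of 0.0543. The log2 fold change was −4.58 for *Lyz2* (standard error 1.01, FDR 0.119), −3.01 for *C1qa* (0.651, 0.107), −2.82 for *C1qb* (0.590, 0.104) and −2.52 for *C1qc* (0.495, 0.0905). It was −1.53 for *Csf1r* (0.348, 0.0909) and −0.80 for *Apoe* (0.235, 0.159), all from edgeR's quasi-likelihood test, and 0.31 for *Cd68* (FDR 0.610) and 0.68 for *Aif1* (FDR 0.852, and 0.098 without CD4cre replicate 1, where it is listed at 0). The same 6 genes had an unadjusted p under 0.05, which 8.91% of all genes had on the lower side, and 4 genes did not overlap between groups on the lower side, against 8.38% of all genes. With DESeq2, 5 members (*Lyz2*, *Csf1r* and the C1q chains) passed the threshold on the lower side, against 4.41% of the genes with an adjusted p. Their adjusted p ran from 1.99e-06 for *C1qc* to 0.0017 for *Csf1r*. The median over the 8 members was −2.03, beside 0.02 over all genes. Without CD4IKK1 replicate 1, the library nearly without T cell receptor transcripts, the values were −4.41 for *Lyz2* and −2.85, −2.68 and −2.35 for *C1qa*, *C1qb* and *C1qc*. Without CD4cre replicate 1, the library with the highest C1q level, they were −3.79, −2.28, −2.04 and −1.94, and without CD4IKK1 replicate 4 *Lyz2* was at −5.56, none of them called.

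Between libraries labelled CD4NIK and CD4cre libraries, none of the 8 members was called in edgeR or DESeq2 or had an unadjusted p under 0.05 in edgeR, and no member separated the groups, which 22.3% of all genes did on the lower side and 22.6% on the higher side. In this comparison 6.99% of the 15209 genes tested were called lower and 10.4% higher in edgeR (9.95% and 13.3% in DESeq2), and 17.8% had an unadjusted p under 0.05 on the lower side. The lower share was unstable, since the 1063 genes called lower became 117 without CD4cre replicate 2, 79 without CD4cre replicate 3, 66 without CD4NIK replicate 2 and 60 without CD4NIK replicate 3, but 786 without CD4cre replicate 1 and 1773 without CD4NIK replicate 1. The log2 fold change was −1.09 for *C1qa* (0.572 as standard error, FDR 0.203). The other values, in the same form, were for *C1qb* −0.86 (0.488, 0.234), *C1qc* −0.78 (0.396, 0.189), *Apoe* −0.96 (0.426, 0.140), *Csf1r* −0.72 (0.339, 0.163) and *Cd68* −0.54 (0.410, 0.375). *Lyz2* and *Aif1* were at 0.43 (0.484, 0.551) and 0.10 (1.29, 0.966). Since none passed the test, these values show neither a difference nor equal levels. The median over the 8 members was −0.75, beside −0.02 over all genes. *C1qa* passed the threshold when CD4cre replicate 2 was left out (log2 fold change −1.54, FDR 0.0312), as did *Apoe* when CD4NIK replicate 1 was left out (−1.47, FDR 0.0228). Without CD4cre replicate 1 the C1q chains were nearer to 0, at −0.38, −0.10 and −0.21 for *C1qa*, *C1qb* and *C1qc*, and *Lyz2* was at 1.22 (FDR 0.0528).

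In the direct comparison of both floxed genotypes under TMM scaling, 4 of the 8 members were called lower in libraries labelled CD4IKK1 than in libraries labelled CD4NIK and none higher, where 18.5% of the 16546 genes tested were called lower and 14.8% higher. *Lyz2* fell by 5.02 on the log2 scale (32.4-fold lower, standard error 0.892, FDR 0.0017). *C1qb* fell by 1.96 (3.89-fold lower, 0.494, FDR 0.0091), *C1qa* by 1.93 (3.81-fold lower, 0.549, FDR 0.0165) and *C1qc* by 1.75 (3.36-fold lower, 0.425, FDR 0.0066), all from edgeR's quasi-likelihood test on all 11 libraries. The same 4 genes did not overlap between groups on the lower side, against 24.4% of all genes, and 1 gene, *Cd68*, did not overlap on the higher side, against 20.7%. *Cd68* had a log2 fold change of 0.84 (FDR 0.0558), *Csf1r* −0.82 (FDR 0.0756), *Aif1* 0.56 (FDR 0.706) and *Apoe* 0.16 (FDR 0.718), so that *Apoe* was not among those that separated these groups. Since both share the CD4cre libraries as controls, this comparison is also the test of whether their differences from CD4cre differ. With each of the libraries removed in turn, *Lyz2*, *C1qb* and *C1qc* were called 11 of 11 times and *C1qa* 10 of 11 times. *Lyz2* ranged from −5.99, without CD4IKK1 replicate 4, to −4.73. Without CD4NIK replicate 1, *C1qa* was not called (log2 fold change −1.82, FDR 0.0594) and *Cd68* was called (1.16, FDR 0.0215).

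**Figure D3:**
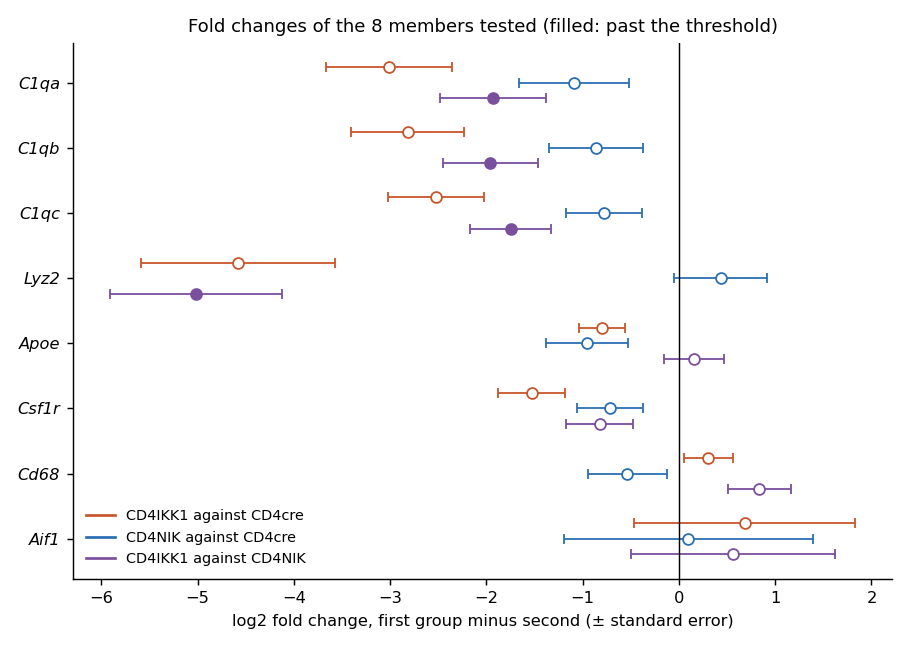
Log2 fold changes of the 8 members tested in the 3 comparisons, with bars for 1 standard error; filled points were called, open points were not. Under TMM scaling, as plotted, the filled points are the C1q chains and Lyz2 between CD4IKK1 and CD4NIK, at −1.75 to −5.02. Under pan-leukocyte scaling the C1q chains were called higher and Lyz2 was not called, and these 4 lay above 0 but below the median of all genes (6.07).

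Other genes of mononuclear phagocytes, 30 in a list of receptors, transcription factors and surface markers that leaves out the members, summed to 799 to 1779 CPM in CD4cre libraries, 174 to 411 CPM in libraries labelled CD4IKK1 and 1580 to 1909 CPM in libraries labelled CD4NIK. Between CD4IKK1 and CD4cre, 20 of the 23 genes tested had lower means, 11 with an unadjusted p under 0.05 (8.91% of all genes on this side), and none passed the threshold, with a median log2 fold change of −1.91. *Cebpb*, a transcription factor of myeloid cells, had the highest CPM of them, at 97.2 CPM in CD4IKK1 and 548 CPM in CD4cre on average (log2 fold change −2.50, FDR 0.0551). *Ctss*, a protease of antigen-presenting cells, stood at 26.1 and 157 CPM (−2.59, FDR 0.115) and *Lgals3*, which encodes galectin-3, at 11.1 and 53.3 CPM (−2.26, FDR 0.249), but *Sirpa*, a receptor that neurons also carry, at 83.9 and 70.9 CPM (0.25, FDR 0.782). Between CD4NIK and CD4cre, 5 of the 23 genes tested rose and none fell, beside 10.4% and 6.99% of all genes. *Ccr2* and *Ly6c2*, used as markers of inflammatory monocytes though T cells can carry them too, rose by 2.92 (FDR 0.0071) and 5.16 (FDR 0.0245) on the log2 scale, and *Maf*, *Cx3cr1* and *Lgals3* by 1.63, 1.56 and 1.16. The C1q chains were not called there. Between CD4IKK1 and CD4NIK, 14 of 25 genes fell and 1, *Sirpa*, rose, beside 18.5% and 14.8% of all genes.

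Partners of the members were described by the same lists. Among 17 complement genes and receptors, 13 were tested and none was called between CD4IKK1 and CD4cre (3 with an unadjusted p under 0.05 on the lower side, beside 8.91% of all genes, median log2 fold change −0.61). *Calr*, which encodes calreticulin, a chaperone that binds C1q, stood at 137 and 148 CPM on average. It rose by 1.58 on the log2 scale in CD4NIK against CD4cre (FDR 0.0124), as did *Cr1l* and *Cd55*, regulators of complement on the cell surface, by 1.19 and 2.70. These were 3 of 13 genes tested, beside 10.4% of all genes called higher, and 4 of the 13 had lower means. Between CD4IKK1 and CD4NIK, 4 of 13 complement genes were called lower and 1, *Lrp1*, higher, beside 18.5% and 14.8% of all genes. Of the 15 ligands, adaptors and transcription factors around *Csf1r*, 12 of 14 tested had lower means in CD4IKK1 than in CD4cre, 6 with an unadjusted p under 0.05 (8.91% of all genes) and none called, with a median of −1.71. None was called between CD4NIK and CD4cre either, beside 6.99% of all genes called lower and 10.4% called higher. Between CD4IKK1 and CD4NIK, 6 of 15 fell (18.5% of all genes), *Spi1* (PU.1) by 3.18 (FDR 0.0134) and *Runx1* by 3.06 (FDR 0.0214) among them, and *Il34*, a *Csf1r* ligand, rose by 1.53 (FDR 0.0142).

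Genes of lipid handling, 17 with *Apoe* left out, summed to 497 to 595 CPM, 468 to 671 CPM and 535 to 557 CPM in CD4cre, CD4IKK1 and CD4NIK libraries. None of the 15 tested was called in either comparison with CD4cre. Of all genes, 0% were called in CD4IKK1 against CD4cre, and 6.99% lower and 10.4% higher in CD4NIK against CD4cre. In CD4IKK1 against CD4NIK, 4 of 15 were called lower and 2 higher, beside 18.5% and 14.8% of all genes. *Npc2*, a cholesterol carrier of lysosomes, was at 26.2 CPM in CD4IKK1 and 74.0 CPM in CD4cre (log2 fold change −1.50, FDR 0.0905), and *Fabp5*, a fatty acid binding protein, at 371 and 272 CPM (0.44, FDR 0.235). Lysosome genes summed to 3010 to 3615 CPM, 2973 to 3274 CPM and 3482 to 3874 CPM, so that CD4IKK1 lay below CD4NIK and both overlapped CD4cre. None of 17 was called between CD4IKK1 and CD4cre. In CD4NIK against CD4cre 1 of 16 (*Grn*) was called lower, beside 6.99% of all genes. In CD4IKK1 against CD4NIK 5 of 17 were called lower and 2 higher, beside 18.5% and 14.8% of all genes. Among those with the highest CPM, *Ctsd* was at 235 and 365 CPM in CD4IKK1 and CD4cre and at 718 CPM in CD4NIK, while *Cst3*, an inhibitor of cysteine proteases, was at 1099, 873 and 500 CPM. In the integrin list around *Itgam*, *Itgal*, *Icam1* and *Fermt3*, which T cells use too, rose by 2.12, 2.02 and 1.70 on the log2 scale in CD4NIK against CD4cre and fell by 3.80, 4.42 and 4.33 in CD4IKK1 against CD4NIK. They were 3 of 7 genes tested in each comparison, beside 10.4% of all genes called higher in the former and 18.5% called lower in the latter, and the other 4 were not called. None of the 6 tested was called between CD4IKK1 and CD4cre, where 5 had lower means and *Tln1*, which encodes talin, a higher one (0.44).

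Markers of other cell types moved with the genotype labels as well. T cell markers, 14 in all, summed to 1643 to 3078 CPM in CD4cre libraries, 17.1 to 1433 CPM in libraries labelled CD4IKK1 and 8435 to 12542 CPM in libraries labelled CD4NIK. The groups did not overlap in these markers, whereas CD4cre and CD4NIK overlapped in C1q and in *Lyz2*. Of these markers, 12 rose in CD4NIK against CD4cre (10.4% of all genes) and 13 fell in CD4IKK1 against CD4NIK (18.5% of all genes), and none was called between CD4IKK1 and CD4cre, where all 14 had lower means. Dendritic cell markers summed to 113 to 421, 28.8 to 84.0 and 371 to 661 CPM in CD4cre, CD4IKK1 and CD4NIK libraries, with *Ccr7*, also a T cell gene, at the highest CPM. Kidney tubule markers summed to 18.7 to 80.5, 5.17 to 11.2 and 13.5 to 113 CPM. Microglia markers, the mononuclear phagocytes of the brain, summed to 15.2 to 32.9, 18.7 to 35.4 and 31.6 to 43.7 CPM. *Gpr34* alone was called, higher in CD4NIK than in CD4cre (log2 fold change 2.74, FDR 0.0225). It was 1 of 7 tested there, beside 10.4% of all genes called higher. Neuron markers fell in 7 of 10 cases in CD4NIK against CD4cre (6.99% of all genes) and rose in 9 of 10 cases in CD4IKK1 against CD4NIK (14.8% of all genes). The part of these markers in the values of the members was not tested.

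**Figure D4:**
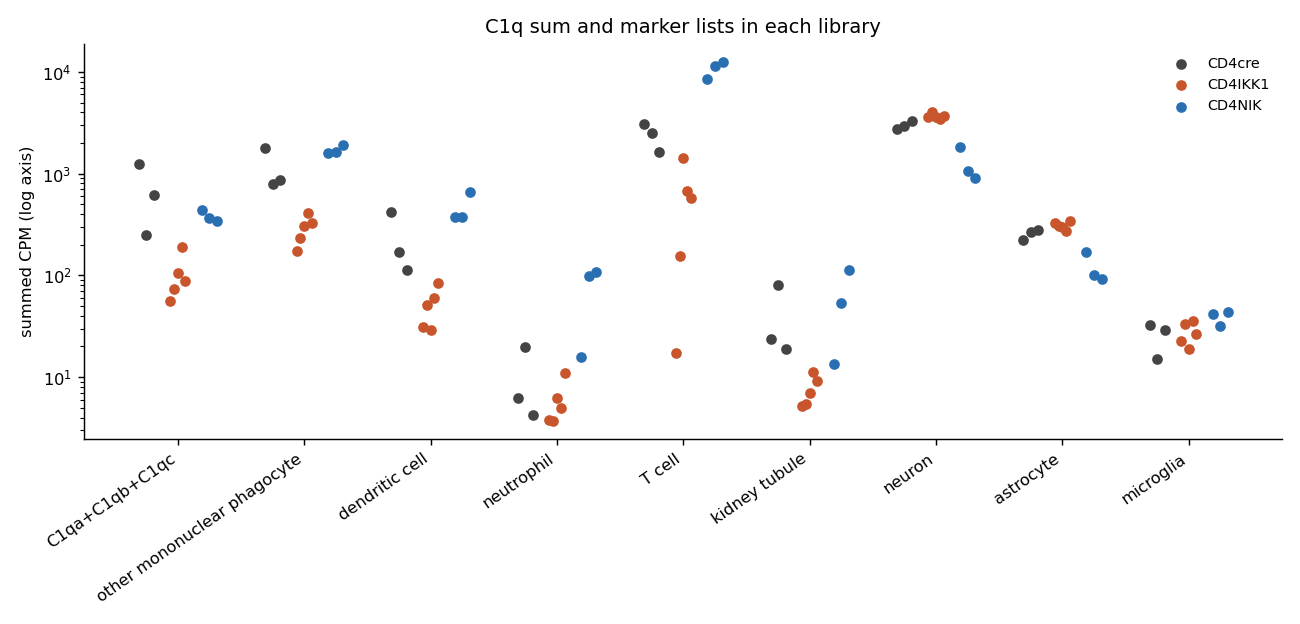
Summed CPM (log axis) of C1qa, C1qb and C1qc and of 8 marker lists in every library, coloured by genotype label. C1q, the other mononuclear phagocyte genes, dendritic cell, T cell and kidney tubule markers are lowest in CD4IKK1 libraries, whereas neuron and astrocyte markers are lowest in CD4NIK libraries.

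The scale on which libraries are compared moved the members together with all other genes. Scaling to 9 pan-leukocyte genes (*Ptprc*, *Coro1a*, *Laptm5* and others), which summed to 51.4 to 1013 CPM in libraries labelled CD4IKK1 and 6891 to 9900 CPM in libraries labelled CD4NIK, moved the median of all genes to 3.65 for CD4IKK1 against CD4cre, to −2.41 for CD4NIK against CD4cre and to 6.07 for CD4IKK1 against CD4NIK. On this scale the log2 fold changes of *C1qa*, *C1qb* and *C1qc* in CD4IKK1 against CD4cre were 0.25, 0.44 and 0.60 (FDR 0.848, 0.731 and 0.644) and that of *Lyz2* was −1.59 (FDR 0.202). C1q per leukocyte transcript was thus not shown to differ between these groups, while *Cd68*, *Aif1* and *Apoe* were called higher (4.16, 4.52 and 2.90, FDR 0.0221, 0.0221 and 0.0498), as were 66.6% of all genes, against 0.0639% called lower. Relative to the shifted median, the order of the members stayed close to that under TMM, at −5.23 for *Lyz2*, −3.40, −3.20 and −3.05 for the C1q chains, −1.59 for *Csf1r*, −0.74 for *Apoe*, 0.52 for *Cd68* and 0.88 for *Aif1*. In CD4IKK1 against CD4NIK, the C1q chains, called lower under TMM, were called higher on the leukocyte scale, at 3.61 to 3.70 (FDR 0.0028 to 0.0034). *Lyz2*, also called lower under TMM, stood at 0.21 (FDR 0.849) and was not called. On this scale 7 members were called higher and 0 lower, as were 87.5% and 0.314% of all genes. Relative to the shifted median the C1q chains were at −2.46 to −2.37 and *Lyz2* at −5.86. In CD4NIK against CD4cre, *Lyz2* was at −1.80 and the C1q chains at −3.42 to −3.11, with 7 members called lower, as were 75.2% of all genes, against 0.559% called higher. Relative to the median these values were 0.61 and −1.01 to −0.69.

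**Figure D5:**
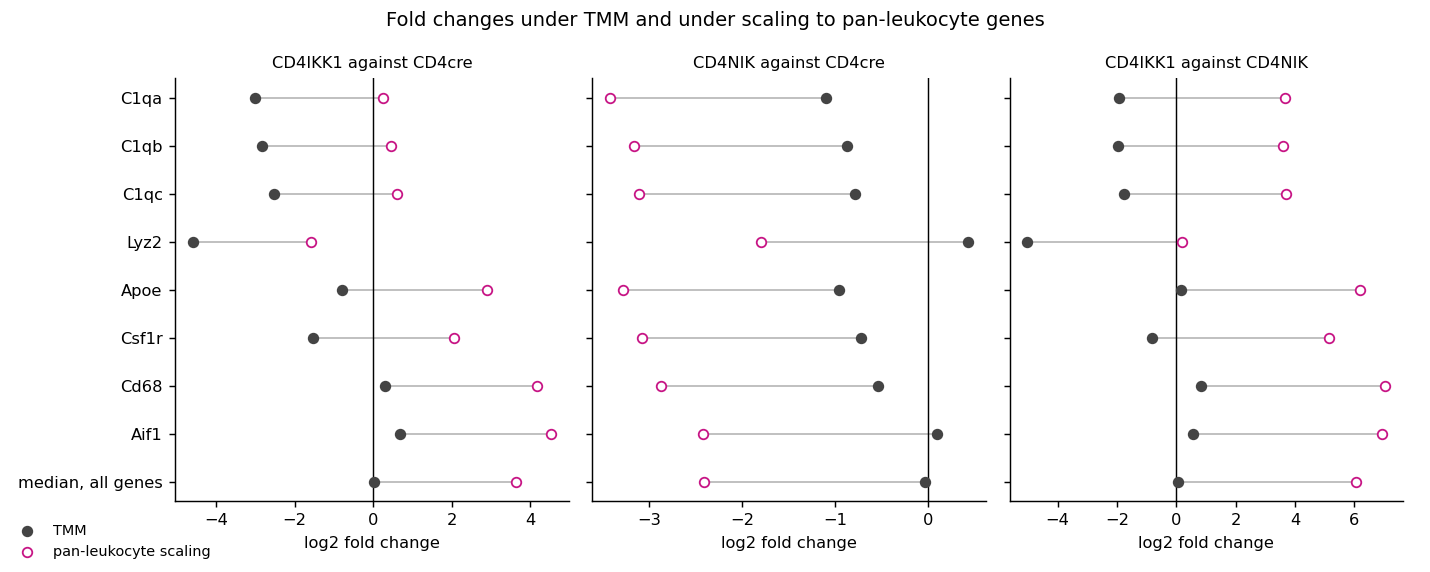
Log2 fold changes of the 8 members tested and the median of all genes under TMM (filled) and under scaling to 9 pan-leukocyte genes (open) in the 3 comparisons; each panel has its own horizontal axis. The members shift by about the same distance as the median of all genes, to 3.65, −2.41 and 6.07, and the C1q chains stay below that median in each panel.

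The pattern of the C1q sum over the 11 libraries was compared with that of 16538 genes as the Pearson correlation of log2 CPM, a description without a test, since libraries share their group and their depth. Among the members, *Lyz2* was most like C1q (r = 0.893), followed by *Csf1r* (0.742) and *Apoe* (0.502), whereas *Cd68* (−0.414) and *Aif1* (−0.637) had negative values. Without CD4cre replicate 1, left out after seeing that *Aif1* is listed at 0 there, r was −0.330 for *Aif1* and −0.611 for *Cd68*, and that of *Apoe* was 0.198. The 10 genes most like C1q outside the members were *Supt4a* (r = 0.952), *Qrfp*, *Sesn2*, *Abcc3*, *Stab1*, *Pld4*, *Bax*, *Sertad1*, *Calca* and *Ctsh* (r = 0.910). *Stab1*, a scavenger receptor of macrophages and some endothelial cells, stood at 19.0, 3.34 and 13.3 CPM on average in CD4cre, CD4IKK1 and CD4NIK libraries. *Pld4* stood at 20.9, 3.61 and 27.2 CPM, and *Ctsh*, a lysosomal protease, at 25.4, 5.44 and 26.2 CPM. *Supt4a*, a transcription elongation factor, and *Bax*, which promotes apoptosis, are used by most cells and were at 86.5, 32.0 and 79.7 CPM and at 161, 64.3 and 181 CPM.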

How the data were processed

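Renal CD4+ T cells of 11 mice were sequenced in bulk. Per the labels and the study's methods, the authors trimmed reads with Trimmomatic 0.36, assigned them to mouse transcripts with kallisto (version not given in the sources used here) and deposited estimated counts for 35814 gene symbols without normalization. The methods name GRCm39 and the labels' processing notes mm10. Coordinates come from GENCODE vM39 on GRCm39, in which 33508 symbols (93.6%) were found, and upstream sequences from RefSeq on GRCm38.p6. Upstream windows were taken for 7 of 10 members and *Lyz1*. *C1qa* and *Adgre1* had no entry by symbol, and windows on chromosome 18, where *Csf1r* lies, were left out. Of the values in a library, 35.1% to 41.7% were not whole numbers (tolerance 1e-06), and all were rounded.

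Libraries were grouped by their titles. Genes were filtered with filterByExpr, normalized by TMM and compared by the quasi-likelihood F test of edgeR with robust dispersions (versions: edgeR 4.0.16, limma 3.58.1, R 4.3.3) and Benjamini-Hochberg adjustment over all genes tested (FDR). The comparisons with CD4cre used their own groups, and CD4IKK1 against CD4NIK used all 11 libraries. A gene was called where groups differed by more than 2-fold with an FDR under 0.05. Standard errors were taken from the F statistic. CPM used the TMM factors of all 11 libraries, and correlations log2 CPM with a prior count of 2. The tests were checked on simulated counts. Alternatives were DESeq2 (1.42.0), other scaling factors, filters, libraries in the fit, a fit that is not robust, a replicate block, no fold threshold and leaving out each library. Replicate numbers were not taken to pair the mice in the main tests. Deviations of libraries with the same number correlated at −0.089 to 0.077, which shows no pairing but cannot exclude it. The members, lists, tests and alternatives were chosen with earlier results of these data known. Genes named beside the members are up to 4 of the most abundant of each list, genes called in a comparison described, the 10 genes most like the C1q sum, the targeted genes and *Lyz1*. *Cd53* of the pan-leukocyte list was not found by symbol, so 9 genes were used.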

Additional observations from a re-analysis of the deposited data

Results flagged for a closer look

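In 3 cases 1 library of the CD4IKK1 group stood apart from the other 4 of its group. *Lyz2* was at 23.5 CPM in replicate 4, beside 0.943 to 7.17 CPM in the others. *Adgre1* was at 0.135 CPM in replicate 5, which is 3 counts, and at 0 in the others, where any value above 0 would stand apart and this one is at the floor. *Itgam* was at 2.83 CPM in replicate 2 and at most 1 count in the others, so that any level well above the floor would stand apart here too. Chance sets apart a library in about 1 in 20 such series of normally distributed values, and 10 series were examined. The values were compared as CPM and not as logs, so that for *Lyz2* this rate is only rough. It does not apply to *Adgre1* and *Itgam* with nearly all values at 0.

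For 4 members the differences from CD4cre were not the same in libraries labelled CD4IKK1 and CD4NIK in edgeR's quasi-likelihood test, with CD4IKK1 lower under TMM scaling. The difference of the log2 fold changes was −5.02 for *Lyz2* (standard error 0.892, FDR 0.0017), −1.93 for *C1qa* (0.549, FDR 0.0165), −1.96 for *C1qb* (0.494, FDR 0.0091) and −1.75 for *C1qc* (0.425, FDR 0.0066). Under pan-leukocyte scaling the C1q chains were instead called higher, as were 87.5% of all genes, and *Lyz2* was not called. T cell and neuron markers differed between the same libraries, and their part was not tested.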

How the results depend on the processing

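Under RLE and upper-quartile factors and library size alone, no call of a member was lost, and *Cd68* was called higher in CD4IKK1 against CD4NIK with upper-quartile factors (1.10, FDR 0.0148). Called members in CD4IKK1 against CD4cre went from 0 to 1 with 10 counts in every library, 3 with all 11 libraries in the fit and 5 with DESeq2, all lower, and to 3 under pan-leukocyte scaling, all higher. All genes called went from 0 to 1 (RLE, upper-quartile), 48 (1 count in any library), 159, 129, 552 and 10434. The median of the members moved to −2.57 (10 counts) and 1.33 (pan-leukocyte), where *Csf1r* (2.06), *Apoe* (2.90), *C1qa* (0.25), *C1qb* (0.44) and *C1qc* (0.60) turned direction. In CD4NIK against CD4cre pan-leukocyte scaling called 7 members, all lower, and 11517 genes (median −3.09) and turned *Lyz2* (−1.80) and *Aif1* (−2.42). *Aif1* also turned with upper-quartile factors (−0.046), library size alone (−0.016) and without CD4cre replicate 1 (−0.49) or CD4NIK replicate 2 (−0.40), and was at most 0.74 with a library left out and 0.94 with the replicate block. In CD4IKK1 against CD4NIK pan-leukocyte scaling called 7 members, all higher and the C1q chains among them, and 14530 genes (median 4.42). *Lyz2* was at 0.21 and not called, *Csf1r* at 5.13, *C1qa* at 3.67, *C1qb* at 3.61 and *C1qc* at 3.70. There, 10 counts gave a median of −1.86. *Apoe* turned without CD4NIK replicate 2 (−0.084) or 3 (−0.021), over a range up to 0.67. The mean C1q sum under pan-leukocyte scaling was 438 CPM in CD4cre, 595 CPM in CD4IKK1 and 47.3 CPM in CD4NIK, so that CD4IKK1 had the highest mean on this scale. Pan-leukocyte scaling moved the median of all genes to 3.65, −2.41 and 6.07 in the 3 comparisons, and the C1q chains stayed below it in each. The cause was not tested.

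Leaving out each library, members called were 0 in CD4IKK1 against CD4cre, 0 to 1 in CD4NIK against CD4cre and 4 in CD4IKK1 against CD4NIK. All genes called ran from 0 to 23, from 674 to 3468 and from 4116 to 5556, and the members' medians from −2.30 to −1.63, from −1.01 to −0.41 and from −1.42 to −1.14. With the replicate block, 3, 1185 and 4994 genes were called. Upper-quartile factors moved the share of lower calls from 40.1% to 55.1% in CD4NIK against CD4cre and from 55.7% to 44.5% in CD4IKK1 against CD4NIK. With library size alone it was 51.0% in the former and with all 11 libraries in the fit 59.4%, but 190 of 1185 calls were lower with the replicate block, and the share was 7.19% (without CD4NIK replicate 2) to 51.1% (without CD4NIK replicate 1) with a library left out. Upper-quartile factors moved the median of all genes to 0.11, −0.16 and 0.30 in the 3 comparisons. Below 3 counts in a library, as for *Adgre1* and *Itgam*, levels cannot be compared.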
